A study of Mus musculus with 8 samples.

Results

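The gene set described here holds 10 named mucin and goblet-type secretory genes, Muc1, Muc4, Muc15, Muc16, Muc20, Fcgbp, Agr2, Tff1, Tff3 and Spdef, chosen by symbol. Of these, 9 have a row among the 24346 gene symbols of the deposited tables, and Muc16 was not analysed here. RNA of mouse uterine epithelium was sequenced in 8 libraries, 3 labelled control and 5 labelled Smad2/3 cKO, from a mixed C57BL/6/129S6/SvEv background. The cKO mice were Smad2 flox/flox and Smad3 flox/flox and carried Cre knocked into the progesterone receptor locus (Pgr-cre), an allele that per the labels also acts in ovary, oviduct, mammary gland and pituitary. The labels do not give the alleles of the control mice, the age, the stage of the cycle, or whether each library is a separate animal, so the p-values below measure the spread between these libraries.

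Mucins are long, heavily O-glycosylated proteins. Some are anchored in the apical membrane of epithelial cells and some are secreted as gels by goblet cells. In the uterus the membrane mucins coat the luminal surface, and MUC1 is known there as a barrier to embryo attachment. Secreted mucins are folded in the endoplasmic reticulum with the help of the disulfide isomerase AGR2, are packed together with FCGBP and trefoil peptides (TFF), and in many mucous epithelia depend on the transcription factor SPDEF. SMAD2 and SMAD3, the deleted genes, carry TGF-beta and activin signals to the nucleus.

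Fcgbp and Agr2 were the 2 members that passed the test between the groups, and they moved in opposite directions. Fcgbp, which encodes a mucus protein with many von Willebrand factor D domains, fell 2.17-fold from a very high level, and Agr2 rose 4.44-fold from a low one. The 2 other tested members, the membrane mucin genes Muc1 and Muc4, did not pass. The remaining 5 members with a row were not tested: Muc20 is listed at 0 in 6 libraries, and Muc15, Spdef, Tff1 and Tff3 were near or at 0 in both groups. In the whole fit 14.3% of 11315 tested genes were called, 7.27% higher and 6.98% lower. The values of the 2 groups did not overlap in 24.6% of the tested genes, so a full separation is common here. With values rescaled to a fixed total of transcripts per library (TPM) 23.5% of calls were higher in place of 51.0%. That run kept the filter and the pseudocount at 1 on the TPM scale and tested 12514 genes, so the set of tested genes differed as well. In bulk RNA, fewer cells of a type and less RNA per cell cannot be told apart.

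The stretches of 250 bases before the RefSeq start (GRCm38.p6) of the 2 called members are shown because these are the regulatory sequences next to the start sites of the genes that changed. Capitals mark any match, on either strand, to CAGAC (the core bound by SMAD3 and SMAD4), GGCGCC (a GC motif bound by SMAD1 and SMAD5), TGTTTAC (a forkhead core) or CCACG (a core of the endoplasmic reticulum stress element).
Agr2, chr12:35992675-35992924, plus strand: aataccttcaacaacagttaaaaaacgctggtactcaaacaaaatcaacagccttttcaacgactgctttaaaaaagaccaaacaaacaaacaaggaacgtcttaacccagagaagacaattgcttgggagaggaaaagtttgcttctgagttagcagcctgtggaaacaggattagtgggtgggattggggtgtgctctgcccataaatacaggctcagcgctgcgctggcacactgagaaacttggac
Fcgbp, chr7:28070986-28071235, plus strand: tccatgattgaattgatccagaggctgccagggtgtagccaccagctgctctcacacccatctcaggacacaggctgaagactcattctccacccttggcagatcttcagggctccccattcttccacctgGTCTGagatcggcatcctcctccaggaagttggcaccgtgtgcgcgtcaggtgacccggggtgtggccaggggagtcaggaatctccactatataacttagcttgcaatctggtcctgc
The Fcgbp stretch held 1 CAGAC match, read on the other strand as GTCTG, and none of the other 3 motifs, and the Agr2 stretch held none of the 4. The Muc4 stretch held 1 CAGAC match and the Muc1 stretch none of the 4. Over all 32851 RefSeq promoter windows of this length, 42.2% held CAGAC, 9.59% GGCGCC, 3.17% TGTTTAC and 28.3% CCACG, on either strand. A match of these letters is a description and not a site.

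The unit below is fragments per kilobase of transcript, per library size (FPKM), scaled to a common median between libraries, so that levels of different genes are per length. Sequencing depth, estimated from the deposited intervals, was 45.1 to 56.6 M fragments per library. Of the targeted genes, Smad2 measured 5.69, 6.35 and 6.18 in the controls, and the cKO values, 3.03 to 4.02, all lay beneath these. Its change was -0.63 ± 0.10 on the log2 scale (SE; limma adjusted p = 0.00550), and the exact two-sided permutation test gave p = 0.0179, the lowest value possible with 56 splits. Smad3 did not pass (0.08 ± 0.22, limma adjusted p = 0.837). A gene-level FPKM also counts exons outside the floxed segments, which limits this check of the labels. Markers of epithelium (among them Epcam, Cdh1 and Krt8) summed to 4793 to 5200 scaled FPKM in controls and 4023 to 6638 in cKO, with 0 of 9 called (limma; 0 with an unadjusted p below 0.05) and none at 0 in all 8 libraries. Luminal markers summed to 371 to 578 in controls and 447 to 877 in cKO, with 0 of 5 called (limma, 1 with an unadjusted p below 0.05).

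**Figure D1:**
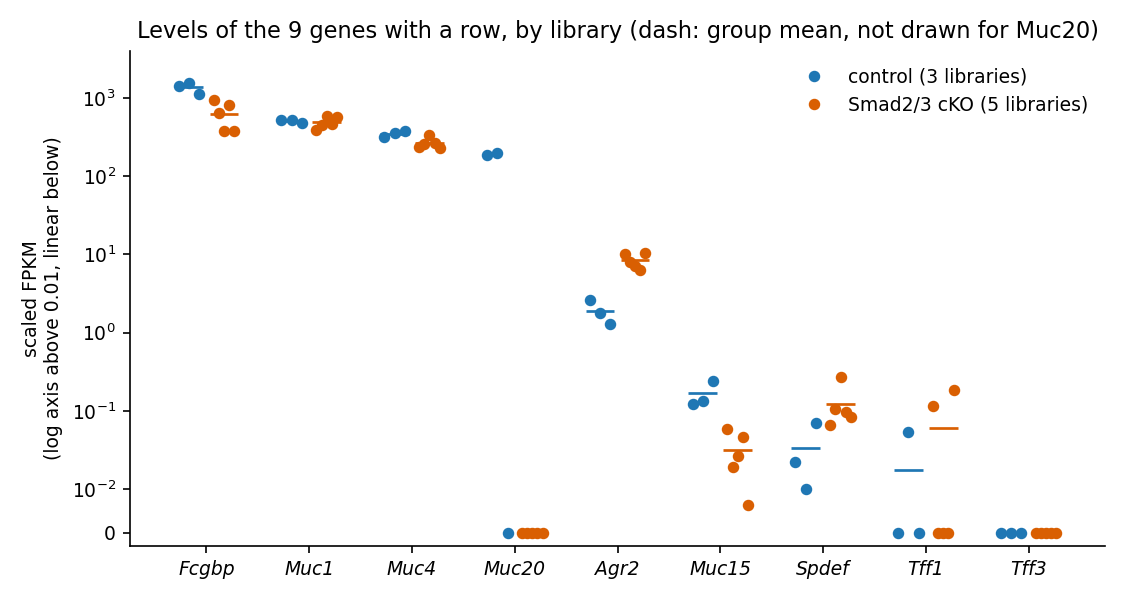
Scaled FPKM of the 9 genes with a row, 1 point per library, controls in blue and Smad2/3 cKO in orange, with dashes at the group means (none for Muc20), on an axis that is logarithmic above 0.01 and linear below. Fcgbp, Muc1 and Muc4 lie at 228 or more in all 8 libraries, Agr2 between 1.31 and 10.4, and Muc15, Spdef, Tff1 and Tff3 below 0.3.

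Muc1 (chromosome 3, 89229056 to 89233381, mm10), the main membrane mucin of the uterine surface, was among the most abundant transcripts. Its scaled FPKM was 519, 525 and 479.9 in controls 1 to 3. The 5 cKO libraries were at 384, 451, 588, 461 and 573. The cKO libraries lay on both sides of the controls and spread more widely. The log2 fold change, cKO minus control on the log2(scaled FPKM + 1) scale, was -0.06 ± 0.16 with a 95% interval from -0.44 to 0.31 (limma adjusted p = 0.818). Among the 6 libraries whose titles belong to one number series, which leaves out cKO 1 and cKO 2, it was 0.08.

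Muc4 (chromosome 16, 32735886 to 32782390), a membrane mucin that can bind the receptor ERBB2, was measured at 317, 354 and 377 scaled FPKM in controls 1 to 3. In cKO 1 to 5 it was at 233, 257, 337, 263 and 228. All cKO libraries but cKO 3 lay below all controls. The log2 fold change was -0.41 ± 0.15 with an unadjusted 95% interval from -0.75 to -0.075, and it missed the threshold after adjustment (limma adjusted p = 0.0993). Without cKO 3 it was -0.51 and passed (adjusted p = 0.0259). It also passed with array weights (-0.47, adjusted p = 0.0168) and with TPM (-0.62, adjusted p = 0.0467), where the median of all genes was at -0.20. Within the main title series it was -0.35 (adjusted p = 0.232). The ratio of Muc4 to Muc1 in a library ran from 0.610 to 0.786 in controls and from 0.398 to 0.607 in cKO. The deposited interval of Muc4 sets a reserve on its values, which is given with Muc20 below.

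Muc20 (chromosome 16, 32777419 to 32797435), whose product is a membrane mucin known to bind the receptor MET, has 2 listed transcripts. The longer one (3673 bases, 0 in all 8 libraries) overlaps the end of the Muc4 locus on the opposite strand by 4972 bases, and the shorter one (2555 bases, 32785784 to 32797435), which carries all of the measured Muc20 signal, starts beyond the end of Muc4. Muc20 was listed at 188 and 197 scaled FPKM in controls 1 and 2, and at exactly 0 in control 3 and in all 5 cKO libraries. No fold change or test is given, since a gene listed at exactly 0 may reflect an estimate that failed, and the split does not follow the groups. Of 6512 genes with at least 10 scaled FPKM in some library, 81 were listed at exactly 0 in another library. Of these 81, 72 (88.9%) overlapped the locus of another gene, as did 21.5% of the 6512. The cause of the zeros of Muc20 was not tested. The deposited 95% interval of Muc4 reached 4.14% to 4.16% of its value to each side in the 8 libraries, where that of Muc1 reached 0.786% to 0.960%. These widths correspond to 2310 to 2331 fragments for Muc4 and 43425 to 64699 for Muc1, although the Muc4 transcript is longer (11280 against 2243 bases). The Muc4 values carry this reserve, and its cause was not tested. In the stretch that Muc4 shares with the longer Muc20 transcript, reads of the genes cannot be told apart unless strand was used, which is not given in the sources used here.

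**Figure D2:**
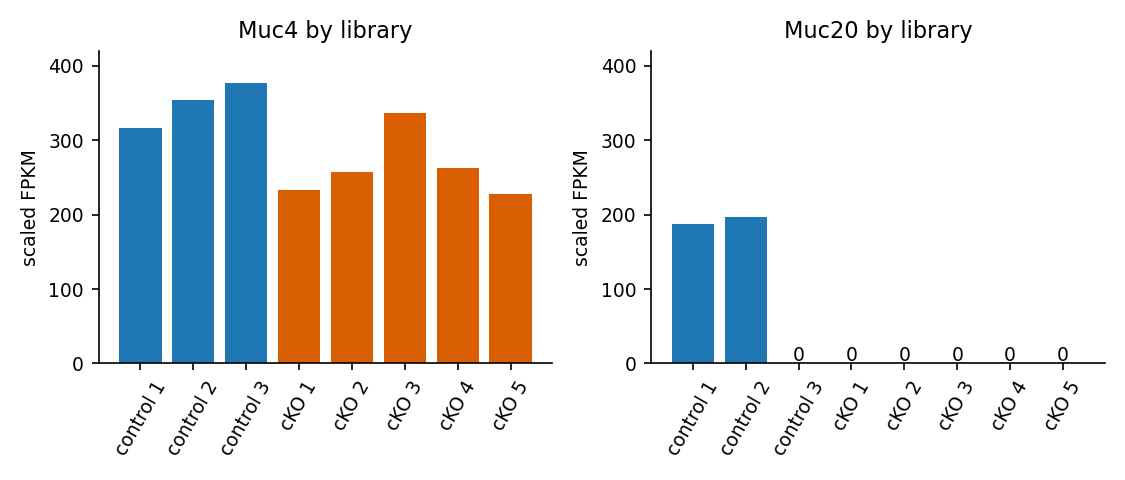
Scaled FPKM of Muc4 and of its neighbour Muc20 in each library, controls in blue and Smad2/3 cKO in orange, 1 bar per library. Muc20 is at 188 and 197 in 2 controls and at 0 elsewhere, while Muc4 lies between 228 and 377 throughout.

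Muc15 (chromosome 2, 110721494 to 110739537), another membrane mucin gene, was near 0 everywhere, at 0.124, 0.133 and 0.244 scaled FPKM in controls and 0.0584, 0.0193, 0.0265, 0.0467 and 0.0064 in cKO 1 to 5. The groups did not overlap, but the deposited intervals correspond to only about 19.4, 23.9 and 44.1 fragments in the controls and 0.500 to 9.09 in cKO. Without the filter on low values Muc15 was called lower, at -0.18 on the log2 scale (limma adjusted p = 0.0265). The controls and cKO 1 had their fragments assigned to the transcript of 3277 bases and cKO 2 to 5 to that of 3222 bases, a split that rests on at most 44.1 fragments in a library.

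Fcgbp (chromosome 7, 28071236 to 28120864) was the most abundant member, ranking 18 to 23 among all genes in the controls and 41 to 138 in cKO. Its scaled FPKM was 1427, 1535 and 1129.7 in controls 1 to 3. In cKO 1 to 5 it was 926, 639.8, 382, 822 and 379. Every cKO library lay below every control, and cKO 3 and cKO 5 were the lowest, below Muc1 in the same library. The ratio of Fcgbp to Muc1 was 2.35 to 2.92 in the controls and 2.41, 1.42, 0.650, 1.78 and 0.661 in cKO 1 to 5.

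The log2 fold change of Fcgbp was -1.20 ± 0.33 (limma adjusted p = 0.0426), from 1364 ± 210.03 scaled FPKM (SD, n = 3) to 629.8 ± 249.5 (SD, n = 5). The adjusted p lies just under the threshold. The call was lost with no filter on low values (adjusted p = 0.0959) and without control 1, control 2, control 3, cKO 2, cKO 3 or cKO 5, with log2 fold changes between -1.33 and -1.04 and adjusted p between 0.0534 and 0.167, and it stood within the main title series (-1.46, adjusted p = 0.0431). Markers of neutrophils (S100a8, S100a9, Retnlg and others) summed to 209 to 403 scaled FPKM in controls and 297 to 1979 in cKO. Of 7 tested, 1, Retnlg, was higher (5 with an unadjusted p below 0.05). Most of the sum was S100a8 and S100a9, which went from 65.0 ± 37.6 to 397 ± 240 and from 207 ± 55.8 to 841 ± 399. Neither of them was called (limma adjusted p = 0.0545 and 0.0540). Retnlg was below 1 in controls 1 and 2 and met the filter through cKO. Of the 9 markers with a row none was at 0 in all 8 libraries, and Ngp was at 0 in control 2, control 3 and cKO 4. With the level of neutrophil and leukocyte markers as a term the log2 fold change of Fcgbp was -0.50 (adjusted p = 0.389), and with that of stromal and muscle markers it was -1.34 (adjusted p = 0.0921).

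Genes were then ranked by the root mean square difference of their centred log2 values from a called member over the 8 libraries, a choice that fixes their difference between the groups, so it is given with no test. By the smallest such difference the genes most like Fcgbp were 9530053A07Rik (0.13), Dkkl1 (0.26) and the gap junction gene Gja1 (0.28). The first lies 8601 bases beyond Fcgbp on chromosome 7 (28129466 to 28164811), and RefSeq lists FCGBP as a synonym of it. Its level went from 29.1 ± 4.46 to 13.96 ± 4.98 (log2 fold change -1.06 ± 0.26). Fcgbp was 43.6 to 49.3 times as abundant as this neighbour in 7 libraries and 38.2 times in cKO 3, and how reads were shared between related genes is not given in the sources used here. Dkkl1 went from 15.6 ± 1.52 to 4.92 ± 2.33 scaled FPKM and Gja1 from 65.3 ± 5.85 to 32.4 ± 8.40.

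Agr2 (chromosome 12, 35992925 to 36004081), the disulfide isomerase of secretory cells, was low in the controls, at 2.59, 1.78 and 1.31 scaled FPKM. In cKO 1 to 5 it reached 10.2, 8.01, 7.07, 6.31 and 10.4. The lowest cKO value was above the highest control value, and the deposited intervals of the 2 groups did not meet. They correspond to about 46.7 to 82.3 fragments in the controls and 204 to 335 in cKO. The log2 fold change was 1.70 ± 0.19, from 1.89 ± 0.648 (SD, n = 3) to 8.40 ± 1.84 (SD, n = 5; limma adjusted p = 0.00142). It passed in all 22 alternatives, with values between 1.55 and 2.12, and was 1.62 within the main title series and 1.73 with the neutrophil and leukocyte level as a term. Even after its rise Agr2 ranked only between 5234 and 6842 among all genes.

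**Figure D3:**
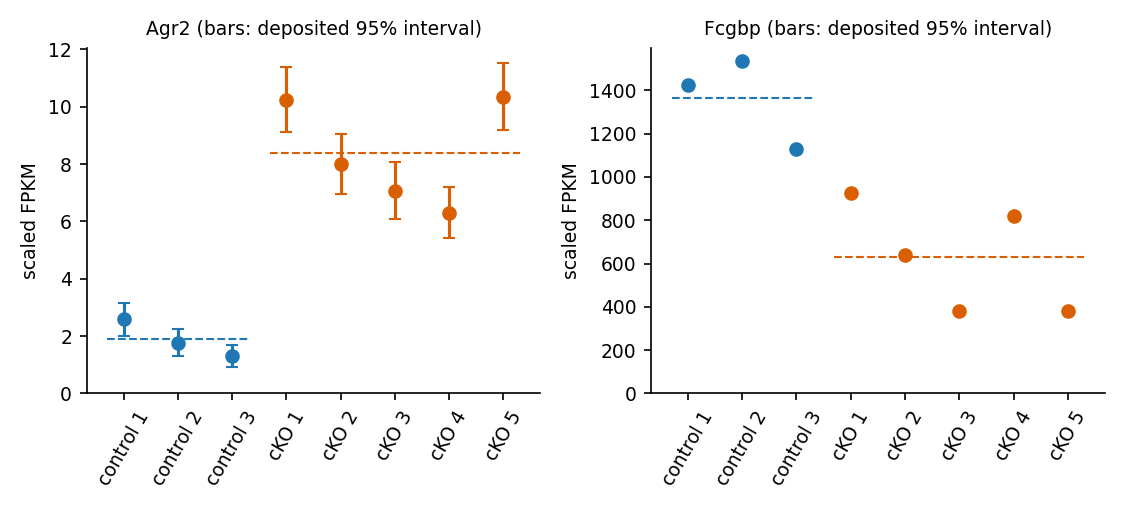
Scaled FPKM of Agr2 and Fcgbp in each library with the deposited 95% interval (bars, smaller than the points for Fcgbp) and the group means (dashed), controls in blue and Smad2/3 cKO in orange. All 5 cKO libraries lie above the controls for Agr2 and below them for Fcgbp, and the cKO libraries of Fcgbp range from 379 to 926.

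The genes most like Agr2 by the same measure were the intracellular chloride channel gene Clic4 (0.15), the reticulocalbin gene Rcn1, whose product is a calcium-binding protein of the endoplasmic reticulum (0.18), and Ctsc, which encodes the lysosomal protease cathepsin C (0.20). Clic4 went from 28.5 ± 4.38 to 86.9 ± 16.2 scaled FPKM, Rcn1 from 2.05 ± 0.63 to 7.88 ± 1.29 and Ctsc from 41.4 ± 10.5 to 115 ± 26.3, differences that the choice of these genes fixed. The values of Rcn1 were close to those of Agr2 in level as well.

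Spdef (chromosome 17, 27714447 to 27728951), the goblet cell transcription factor gene, was barely detected. Its scaled FPKM was 0.0222, 0.009998 and 0.0697 in controls 1 to 3. It was 0.0656, 0.107, 0.268, 0.0969 and 0.0824 in cKO 1 to 5, and the deposited intervals correspond to between 1 and 22.0 fragments in a library. The groups overlapped, and without the filter Spdef did not pass (limma adjusted p = 0.247). Of the trefoil peptide genes on the same chromosome, Tff1 was listed above 0 in control 2, cKO 1 and cKO 5 only, at 0.0534, 0.114 and 0.187 scaled FPKM, which is at most 2.21 fragments. Tff3 was listed at 0 in all 8 libraries.

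Markers of intestinal goblet cells were split. The gel-forming mucin gene Muc2 lay between 0.142 and 0.502 scaled FPKM, Zg16, Atoh1 and Retnlb were listed at 0 in all 8 libraries, and Spink4 reached at most 0.256. Clca1, which encodes a secreted mucus protein of goblet cells and was picked out after its values were seen, was instead among the most abundant genes, at 2836, 3706 and 2449.9 in controls 1 to 3. It was at 2397, 1029, 1351, 1577 and 389 in cKO 1 to 5. These groups did not overlap, as in 24.6% of all tested genes, but Clca1 missed the threshold at -1.35 ± 0.51 (limma adjusted p = 0.111). Among 22 alternatives it passed only with array weights (adjusted p = 0.0249), and with the neutrophil and leukocyte level as a term its value was -0.72. The 6 markers thus do not give 1 answer on goblet cells, and "goblet-type" is used here for the proteins and not as the name of a cell type.

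Other mucin and sialomucin genes were not called, 0 of 6 tested (limma; 0 with an unadjusted p below 0.05), with a median log2 fold change of -0.050 against -0.0050 over all tested genes. Cd164, a sialomucin of the cell surface and endosomes, was the most abundant at 217 ± 40.8 against 213 ± 25.7, and the membrane mucin gene Muc13 was at 3.59 ± 1.82 against 3.29 ± 0.995. The gel-forming mucin genes were all low. Muc5ac stayed at or below 0.412 scaled FPKM, Muc5b at or below 0.466 and Muc6 at or below 0.0444.

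Of 25 tested genes on a list of O-glycan enzymes, which also holds a chaperone and enzymes that act on other glycans, 4 were higher and 3 lower, where 14.3% of all tested genes were called, with a median log2 fold change of -0.14. Galnt10, one of the transferases that start O-glycans, was at 10.3 ± 0.898 scaled FPKM in controls and at 3.73 ± 0.839 in cKO (-1.27 ± 0.15 on the log2 scale, limma adjusted p = 0.00162). Gcnt1, which makes the core branch of O-glycans, rose from 7.95 ± 0.909 to 18.7 ± 3.17 (1.13 ± 0.15, adjusted p = 0.00263), and both calls stood in all 22 alternatives.

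The sialyltransferase gene St6gal1, which acts mainly on N-glycans, fell from 37.2 ± 5.91 to 17.2 ± 5.13, and C1galt1c1, the chaperone gene of the core galactosyltransferase, rose from 11.8 ± 0.526 to 16.8 ± 1.84 (limma adjusted p = 0.0192 and 0.0195). C1galt1, the galactosyltransferase gene itself, fell from 26.4 ± 4.09 to 17.8 ± 2.52, so the enzyme and its chaperone moved in opposite directions. The other 2 higher members, Galnt1 and Galnt18, went from 21.4 ± 0.825 to 30.2 ± 4.64 and from 3.71 ± 0.242 to 7.68 ± 2.07. C1galt1, Galnt1 and Galnt18 were named after their values were seen, and their calls were lost in 12, 13 and 5 of 22 alternatives, those of St6gal1 and C1galt1c1 in 4 each.

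Among 20 tested genes of a goblet cell programme (secretory, folding and transcription factor genes), 7 were higher and 2 lower, where 7.27% of all tested genes were called higher and 6.98% lower, with a median log2 fold change of 0.40. Of the 7 higher ones, Foxa2, Sytl2, Guca2a, Nlrp6 and Slc12a8 were below 1 scaled FPKM in every control and met the filter through cKO. The presence of these 5 among tested genes depended on a rise, and their adjusted p-values carry that selection. The count of higher genes and the median of this list carry that selection, so no change of the list as a whole is read from them. Foxa2, a forkhead factor of uterine glands, rose from 0.79 ± 0.301 to 5.26 ± 0.785 and the vesicle exocytosis gene Sytl2 from 0.156 ± 0.0951 to 5.19 ± 2.70 (limma adjusted p = 0.000307 and 0.00654). The guanylin gene Guca2a rose from 0.0577 ± 0.0232 to 1.35 ± 0.555, and its relative Guca2b, the uroguanylin gene, to 569 ± 334 from 15.05 ± 6.14 (limma adjusted p = 0.0109 and 0.000579). The calls of Sytl2 and Guca2a were lost with the neutrophil and leukocyte level as a term, and that of Guca2a also without control 2 or control 3. Of the other gland markers, Prss28 and Spink1 were listed at 0 in all 8 libraries, and Cxcl15 and Prss29 reached at most 0.131 and 0.0585 scaled FPKM. Lif and Sox9 were tested and not called (log2 fold changes of -0.27 and -0.55).

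The other 5 called genes of this list were named after their values were seen. Xbp1, a transcription factor of the unfolded protein response, rose from 121 ± 52.1 to 282 ± 85.7, with cKO 3 (175) below control 1 (179). Creb3l1, a membrane-bound factor of secretory cells, fell from 50.2 ± 10.9 to 26.5 ± 4.54 and the sulfhydryl oxidase gene Qsox1 from 433 ± 60.6 to 227 ± 63.9. The inflammasome gene Nlrp6 and the cotransporter gene Slc12a8 were the last 2 higher members. They were at 1.803 ± 0.62 and 1.82 ± 1.01 in cKO against 0.592 ± 0.355 and 0.307 ± 0.0472 in controls. Both were below 1 in every control and met the filter through cKO, so their being tested depended on a rise. The calls of Xbp1, Creb3l1, Qsox1, Nlrp6 and Slc12a8 were lost in 11 of 22, 3 of 22, 7 of 22, 8 of 21 and 9 of 20 alternatives. Those of Xbp1 and Nlrp6 did not stand within the main title series (limma adjusted p = 0.0970 and 0.0634), and that of Slc12a8 did not with the series as a term (adjusted p = 0.0585).

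Of 24 tested partners and sheddases of membrane mucins, 1 was higher and 1 lower, where 14.3% of all tested genes were called. The median log2 fold change of these 24 genes was 0.096. Mmp14, a membrane metalloproteinase known to shed MUC1, fell from 58.7 ± 4.43 to 39.2 ± 6.55, and St14, the serine protease matriptase, rose from 149 ± 28.9 to 213 ± 19.8 (limma adjusted p = 0.0273 and 0.0399). These calls were lost in 7 and 13 of 22 alternatives, the main title series alone among them. The mucin-bound receptor genes Erbb2 and Met were not called, with log2 fold changes of 0.10 and 0.03.

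**Figure D4:**
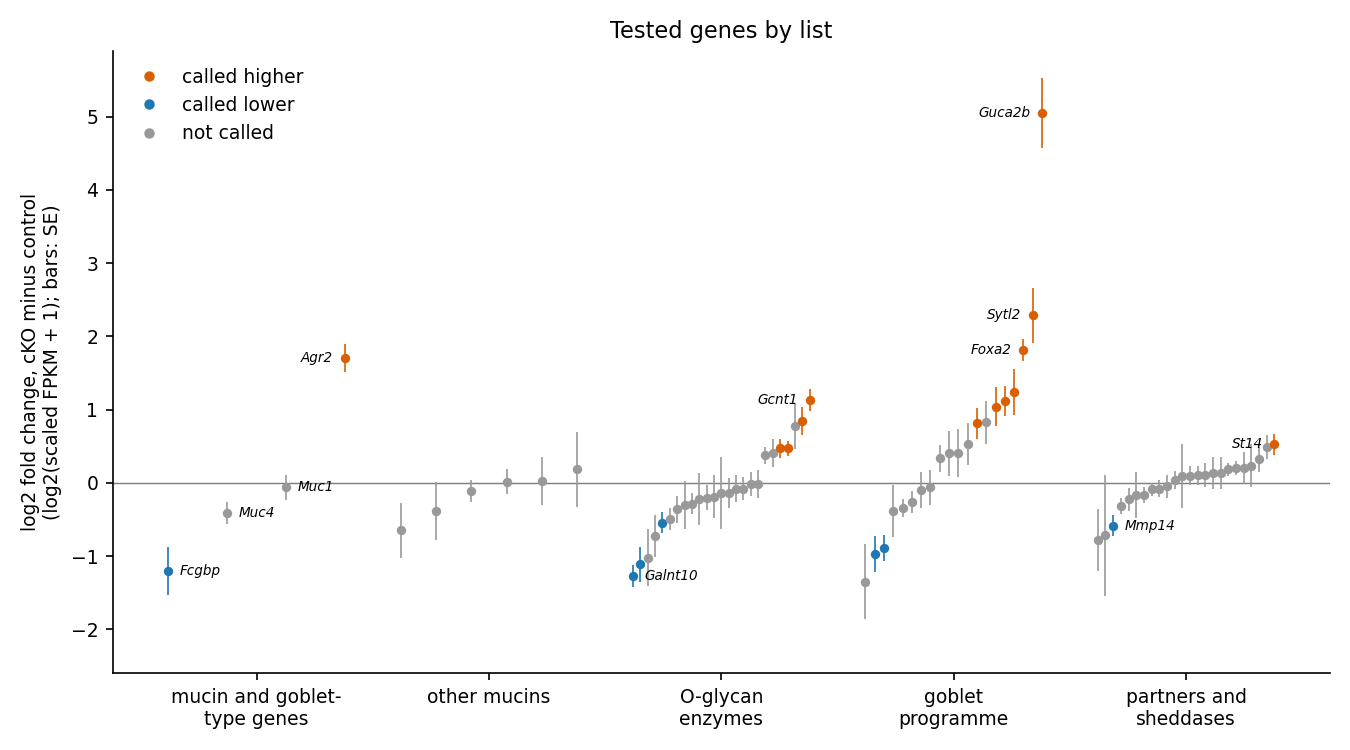
Log2 fold change (cKO minus control, log2(scaled FPKM + 1)) with its standard error for each tested gene of the 5 lists, ordered by value within a list. Orange points were called higher, blue lower and grey not called; Agr2 and Fcgbp lie at 1.70 and -1.20, and no gene of the other mucins was called.

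Marker sums of the other cell types lay below those of epithelium. Neutrophil markers, at 297 to 1979 scaled FPKM in cKO as given above, reached above the luminal ones (447 to 877 in cKO). Stromal fibroblast markers summed to 115 to 259 scaled FPKM in controls and 57.4 to 252 in cKO, with Nr2f2 the 1 called of 7 (lower), and smooth muscle markers to 59.8 to 337 and 17.7 to 114, with 0 of 7 called (limma; 0 with an unadjusted p below 0.05). Leukocyte markers summed to 84.7 to 123 and 56.8 to 117 (0 of 3 called, 2 with an unadjusted p below 0.05). Most of this sum was Cd68, which went from 101 ± 18.9 to 68.5 ± 19.6 (limma adjusted p = 0.116). Ptprc went the other way, from 2.02 ± 0.702 to 5.97 ± 3.07 (limma adjusted p = 0.0615). Mesothelial markers summed to 13.9 to 32.6 and 2.89 to 49.4, and squamous markers to 15.6 to 29.4 and 27.0 to 88.8, with Krt13 the 1 called of 4 (higher). Krt13 was below 1 in all 3 controls and met the filter through cKO, so its being tested depended on a rise. Endothelial markers summed to at most 6.96 scaled FPKM in any library, ciliated and oviduct markers to at most 19.97 and ovarian markers to at most 0.915. Of the first and the second list 2 genes each were tested and none was called (limma; 0 with an unadjusted p below 0.05), and no ovarian marker was abundant enough to be tested. The part of these cells in the values of Fcgbp and Agr2 was not tested. The terms given above cannot settle it, since the neutrophil level partly followed the groups. The mean log2(scaled FPKM + 1) of the neutrophil markers was 2.13 to 2.87 in controls and 2.69 to 4.64 in cKO.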

How the data were processed

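The authors deposited transcript FPKM with a 95% interval and a status, and a mean coverage signal per transcript, per the file headers; bcl2fastq 1.8.3, TopHat, Cufflinks and mm10 are named in the submitters' processing notes. Coverage was not analysed. FPKM was summed per symbol, 15 genes with a status other than OK were left out, and libraries were scaled by the median ratio over 9939 genes (factors 0.924 to 1.06). A gene entered the test where 3 or more libraries reached a scaled FPKM of 1. The two-sided test was limma 3.58.1 (R 4.3.3) with a trended variance, fitted to log2(scaled FPKM + 1), and calls were made at a Benjamini-Hochberg adjusted p below 0.05. This scale understates the change of low genes. Fragment numbers were taken from the interval widths. The fit was tested on simulated data for cKO against control over 11315 genes, where 77.0% of 200 genes changed by 1 on the log2 scale were called and 7.23% of the calls were false. The changed genes were drawn only from genes above a low level in controls, so the recovery does not cover genes as low there as Agr2.

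The members and gene lists were chosen with earlier results of these data known. Named were the members, Smad2, Smad3, up to 4 called members of each related list by adjusted p (or its 2 most abundant), and for each called member the 3 genes most like it with a mean scaled FPKM of at least 5. Marker lists covered epithelial, luminal, glandular, stromal, muscle, endothelial, immune, mesothelial, squamous, ciliated, ovarian and goblet cells. Alternatives changed the scaling, pseudocount, filter, status rule, variance model, weights, covariates and libraries. Replicate numbers follow the accession order and pair nothing.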

Additional observations from a re-analysis of the deposited data

Results flagged for a closer look

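Spdef in cKO 3 stood far from the other cKO libraries, at 0.268 scaled FPKM where the other 4 lay between 0.0656 and 0.107, and the deposited interval corresponds to 22.0 fragments there. Among the genes named above, 36 groups of 5 cKO libraries were examined for such a library and 1 was found, and chance flags about 1 in 20 such groups.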

How the results depend on the processing

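The alternatives were run for 33 of the genes named above, and not for others such as Retnlg, Nr2f2, Krt13, Lif, Sox9, Ptprc, Cd68, Erbb2 and Met. Of the 27 called among these 33, 8 kept their call in every alternative that could be fitted, Agr2 among them, and no called value of the 33 changed sign. The member called higher was 1 in every alternative. The number of members called lower was 2 with array weights and with TPM (Fcgbp and Muc4), 0 with the stromal and muscle level and with the neutrophil and leukocyte level as a term, and 0 to 1 when single libraries were left out. It stayed at 1 without the filter, but was then Muc15 in place of Fcgbp, and without cKO 3, where it was Muc4 in place of Fcgbp. Against 823 genes higher and 790 lower, array weights gave 1793 and 1733, TPM 510 and 1662, the stromal and muscle term 367 and 310, the neutrophil and leukocyte term 314 and 298, and leaving out single libraries 238 to 935 and 176 to 892, with the fewest without control 2 (238 and 186) and control 3 (243 and 176) and 437 lower without control 1. Smad2 missed the threshold with the neutrophil and leukocyte term (-0.62, adjusted p = 0.0541). The cause of these changes was not tested. No paired analysis was possible because the labels give no replicate numbers shared between the groups. Depth limits the members below 1 scaled FPKM, where a library held 44.1 fragments or fewer.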
